A study of Mus musculus with 15 samples.

Results

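Transcripts of 8 genes that neurons switch on early after stimulation, or that act beside such genes, were followed in cultured mouse hippocampal neurons: Arc, Npas4, Homer1, Ier2, Btg2, Gadd45b, Klf4 and Rheb. The genes were chosen by symbol, all 8 were among the 24498 genes of the deposited count table, and all 8 were among the 15075 genes that were tested. Primary neurons had differentiated in culture for 7 days and then received 5 mM acetate, or the medium that carried it, for 24 h. Each was combined with 20 µM of an inhibitor of ACSS2, which makes acetyl coenzyme A from acetate, or with its solvent DMSO. The groups were DMSO vehicle (no acetate, no inhibitor, 4 libraries), DMSO acetate (4 libraries), inhibitor vehicle (3 libraries) and inhibitor acetate (4 libraries), and libraries are called by group and replicate number. The labels name no allele and no firing stimulus for any group, and they leave unsaid whether each replicate was its own culture or animal. All p-values therefore measure only the spread between these libraries, which may be technical. The comparisons ask what acetate changed, whether ACSS2 activity was needed for it, and what the inhibitor changed by itself.

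Calcium that enters a firing neuron activates kinases and, through them, factors such as CREB, SRF and MEF2 that are already bound near early genes, so that these genes are transcribed without new protein synthesis. Some early genes encode transcription factors, which pass the signal to a later set of genes, and others encode proteins that act directly at the synapse or on growth and repair. Npas4 is largely restricted to neurons, and Arc responds strongly to neuronal firing, whereas Ier2, Btg2, Gadd45b and Klf4 also respond to serum, growth factors or stress in many cell types, glia included. Homer1 yields a short transcript after activity and long constitutive ones, and counts per gene do not separate them.

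Gene counts ranged from 19688231 to 39234799 per library, and 1 count was worth 0.0277 to 0.0541 CPM (counts taken relative to a TMM-adjusted library total). Marker transcripts of other cells were uneven between libraries. Their mean over astrocyte, oligodendrocyte, microglia, vessel and meninges markers, called the non-neuronal score, was 4.67 ± 0.65 log2 CPM (SD, n = 4) in DMSO vehicle, 2.58 ± 0.0652 (n = 4) with acetate, and with inhibitor 3.88 ± 1.39 (n = 3) without and 2.45 ± 0.135 (n = 4) with acetate. DMSO vehicle 1 lay at 3.7, the lowest of its group, and inhibitor vehicle 2 lay at 2.28, below all acetate libraries. Results that rest on these libraries are given with and without them. Markers of neurons were present in every group, with a summed level of 5530 to 8430 CPM in DMSO vehicle libraries and 10900 to 13000 CPM in those with acetate, and 0 markers of any list were at 0 over a whole group.

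The promoter windows below, from 250 bases before to 50 bases after the annotated start, are RefSeq's on GRCm38.p6. Of the 8 genes 6 had an entry, and Arc and Ier2 had none. They are shown because the binding site of CREB, TGACGTCA, and its half-site, TGACG, are bound by a factor named above, and because 3 of the 4 genes shown (Npas4, Btg2 and Gadd45b) fell with acetate while Homer1 did not pass the test. Capitals mark matches on either strand (CGTCA is the half-site read on the other strand, and TATAAA is the TATA box).
Npas4, chr19:4989922-4990221, minus strand: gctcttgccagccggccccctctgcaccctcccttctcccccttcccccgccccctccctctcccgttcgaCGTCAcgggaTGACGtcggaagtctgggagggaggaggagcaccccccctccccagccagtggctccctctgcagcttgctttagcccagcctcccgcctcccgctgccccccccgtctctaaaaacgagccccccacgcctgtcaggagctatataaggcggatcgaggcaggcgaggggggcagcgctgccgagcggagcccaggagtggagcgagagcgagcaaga
Btg2, chr1:134079106-134079405, minus strand: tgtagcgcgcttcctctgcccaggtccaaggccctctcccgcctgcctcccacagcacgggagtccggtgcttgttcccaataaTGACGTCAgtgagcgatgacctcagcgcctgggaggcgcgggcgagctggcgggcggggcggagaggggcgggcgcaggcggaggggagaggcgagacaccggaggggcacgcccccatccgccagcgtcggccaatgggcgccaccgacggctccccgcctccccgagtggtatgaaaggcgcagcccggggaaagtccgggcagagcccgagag
Gadd45b, chr10:80929841-80930140, plus strand: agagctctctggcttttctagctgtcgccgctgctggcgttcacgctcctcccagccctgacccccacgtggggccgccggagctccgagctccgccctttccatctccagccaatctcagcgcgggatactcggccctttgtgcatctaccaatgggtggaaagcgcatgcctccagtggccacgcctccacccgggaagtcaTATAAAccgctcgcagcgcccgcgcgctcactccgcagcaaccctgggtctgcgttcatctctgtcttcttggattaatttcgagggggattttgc
Homer1, chr13:93303507-93303806, plus strand: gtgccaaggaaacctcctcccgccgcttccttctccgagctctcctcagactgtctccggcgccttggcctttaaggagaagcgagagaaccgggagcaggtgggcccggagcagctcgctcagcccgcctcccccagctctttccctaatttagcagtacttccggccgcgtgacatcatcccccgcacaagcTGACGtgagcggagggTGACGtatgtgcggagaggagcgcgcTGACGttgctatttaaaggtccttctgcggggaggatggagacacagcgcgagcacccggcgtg
Btg2 holds the whole 8-letter element at position -166 from the start, an element present in 1.79% of the 32851 mouse promoter windows of this length. Npas4 holds half-sites at -179 and -169 on opposite strands, and Homer1 holds 3, at -56, -40 and -14; TGACG occurred in 20.8% of all windows, the whole element included. Gadd45b holds TATAAA at -46 (13.6% of windows) and neither CREB motif. Klf4 and Rheb hold 1 half-site each, at -232 and -247. The second Homer1 window held none of the motifs. An AP-1 site (TGANTCA, 7.81% of windows) or a CArG box (1.63%), the site of SRF, was found in 0 of the 7 windows. These matches are letters in a window, not measured binding. The windows printed were chosen with the acetate result known, and that of Klf4, which also fell, is not among them. Gadd45b fell and holds neither CREB motif, and Homer1, which did not pass, holds 3 half-sites. So few windows cannot show whether the motifs go with that result, which was not tested.

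Per kilobase of merged exons (GENCODE M21 models on GRCm38, the assembly that mm10 names), the DMSO vehicle levels ran from Ier2 at 22.9 CPM per kb, Gadd45b at 15.9 and Rheb at 14.5, through Btg2 at 9.84 and Npas4 at 7.37, to Arc at 4.29, Homer1 at 2.04 and Klf4 at 1.06. In inhibitor acetate, Rheb stood at 13.6 and Ier2 at 13.1 CPM per kb, Btg2 at 5.21, Gadd45b at 4.83 and Homer1 at 2.51, and Npas4, Arc and Klf4 stood at 1.05, 0.736 and 0.548. Per length, the order thus placed Npas4 and Arc above Homer1 in untreated cultures and below it with acetate and inhibitor. For Arc this depends on the division by length. In CPM, DMSO vehicle had Npas4 at 30.5, Homer1 at 24.4 and Arc already below it at 13.1. The merged length of Homer1 holds alternative ends that no single transcript uses, so its level per length is a low estimate.

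**Figure D1:**
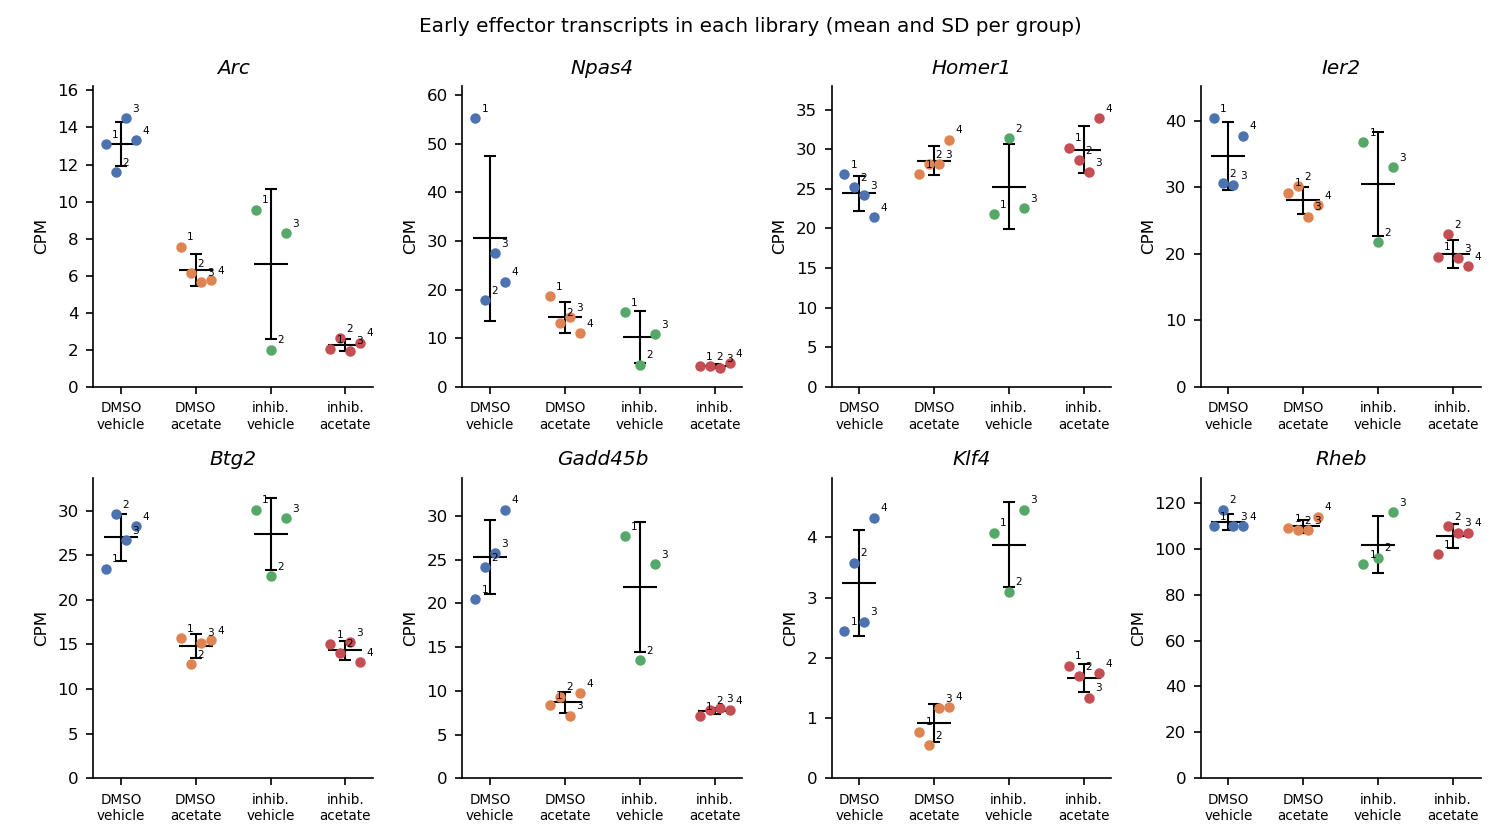
CPM of each of the 8 genes (vertical axis, starting at 0) in the 4 groups (horizontal axis), with 1 numbered point per library and a bar for the group mean with its SD. Btg2, Gadd45b and Klf4 lie lower in all acetate libraries than in all vehicle libraries of their own arm, Arc does so without inhibitor (5.67 to 7.57 against 11.6 to 14.5 CPM), and Rheb stays between 93.2 and 117 CPM in all 15.

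Acetate without inhibitor lowered 5 of the 8 genes: Klf4, Gadd45b, Npas4, Arc and Btg2, by 1.83 to 3.58 times. By edgeR 0 rose, as at an unadjusted p under 0.05 and by DESeq2. Over all 15075 genes, 51.2% were called in this comparison, 27.5% as lowered and 23.7% as raised, and 57.4% were under 0.05 unadjusted, as were 6 of the 8. The libraries of the groups did not overlap for 5 genes (Arc, Ier2, Btg2, Gadd45b and Klf4, all lower with acetate), where 23.3% of all genes lay lower and 22.1% higher without overlap. The median log2 fold of the 8 was -0.97, and that of all genes was -0.034. The non-neuronal score went from 4.67 to 2.58 in the same comparison. In RNA from whole cultures, fewer cells of a type and less RNA per cell cannot be told apart.

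With the inhibitor present, acetate lowered 6 of the 8 genes, the same 5 and Ier2, and 0 rose by edgeR, at an unadjusted p under 0.05 or by DESeq2. Of all genes tested 35% were called, 20.6% as lowered and 14.5% as raised, and an unadjusted p under 0.05 was reached by 44.8% of them and by 6 of the 8. The groups' libraries did not overlap for 3 genes, Btg2, Gadd45b and Klf4, where 16.4% of all genes lay lower and 16.4% higher without overlap. The median of the 8 was -1.07, beside -0.03 for all genes.

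**Figure D2:**
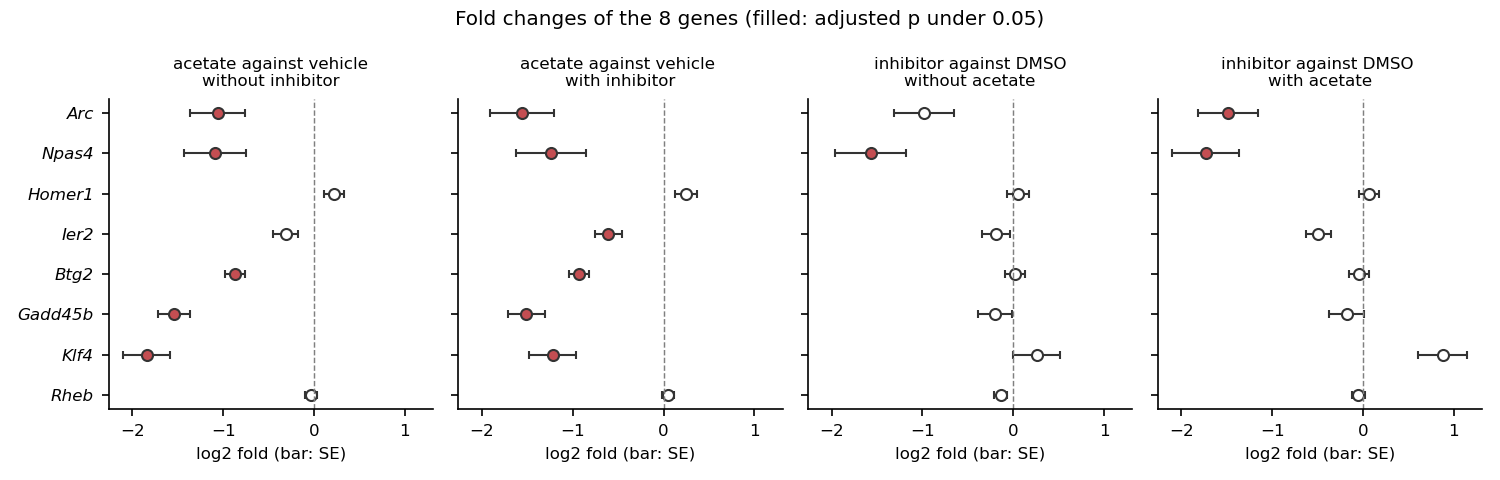
Log2 fold of each gene (horizontal axis) in 4 comparisons (panels), with bars for the SE and filled points where the adjusted p was under 0.05 by edgeR. Btg2, Gadd45b and Klf4 are filled only in the acetate panels, and Npas4 is filled in all 4.

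Among the transcription factors, Npas4 (chromosome 19, 4984355 to 4990316, minus strand, up to 8 exons) is a basic helix-loop-helix factor induced by calcium entry. It was at 55.2, 17.8, 27.4 and 21.6 CPM in DMSO vehicle 1 to 4 and at 18.7, 13.2, 14.3 and 11.1 CPM in DMSO acetate 1 to 4. In inhibitor vehicle it was at 15.3, 4.56 and 10.9 CPM, and in inhibitor acetate at 4.27, 4.32, 3.89 and 4.86 CPM. DMSO vehicle 1 had the highest level of all 15 libraries, DMSO acetate 1 overlapped DMSO vehicle 2, and inhibitor vehicle 2 lay within the inhibitor acetate range. In the order of group means, DMSO vehicle, DMSO acetate, inhibitor vehicle, inhibitor acetate, each pair of neighbours overlapped.

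Npas4 fell with acetate by a log2 fold of 1.09 without inhibitor (SE 0.34, adjusted p = 0.0159 by edgeR) and by 1.24 with it (SE 0.39, adjusted p = 0.0245 by edgeR). The first call was lost without DMSO vehicle 1, at -0.64 with adjusted p = 0.0639 by edgeR, and held at -0.62 with adjusted p = 0.00293 by edgeR when inhibitor vehicle 2 was left out as well. The second was lost without inhibitor vehicle 1 (-0.84, adjusted p = 0.162 by edgeR) and without inhibitor vehicle 3 (adjusted p = 0.071) or inhibitor acetate 1, 2 or 3 (adjusted p = 0.051, 0.0509 and 0.0561, all by edgeR). With the non-neuronal score in the model the folds of Npas4 were -1.10 and -1.27, close to those without it, but at adjusted p = 0.141 and 0.124 by edgeR.

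Klf4 (chromosome 4, 55527143 to 55532466, minus strand), a zinc finger factor known as a brake on axon growth, was the least abundant of the 8, with 16 to 118 counts per library. Its levels were 2.45, 3.58, 2.6 and 4.33 CPM in DMSO vehicle, then 0.777, 0.553, 1.17 and 1.19 CPM in DMSO acetate, 4.08, 3.1 and 4.46 CPM in inhibitor vehicle, and 1.87, 1.7, 1.34 and 1.75 CPM in inhibitor acetate. All acetate libraries were lower than all vehicle libraries, and inhibitor acetate lay above DMSO acetate without overlap. Acetate lowered it by a log2 fold of -1.84 (SE 0.26, adjusted p = 9.34e-05 by edgeR) without inhibitor and of -1.22 (SE 0.26, adjusted p = 0.00373 by edgeR) with it, the latter at -0.84 with adjusted p = 0.0604 by edgeR when the non-neuronal score was in the model.

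Ier2 (chromosome 8, 84661331 to 84662852, minus strand, 1 exon) encodes a nuclear protein made early after growth factor stimulation. It was at 40.4, 30.6, 30.3 and 37.8 CPM in DMSO vehicle, against 29.2, 30.2, 25.6 and 27.3 CPM in DMSO acetate. In inhibitor vehicle it was at 36.8, 21.8 and 33.1 CPM, and in inhibitor acetate at 19.6, 23, 19.4 and 18.1 CPM. The DMSO groups were separated only by the step from 30.2 to 30.3 CPM, and inhibitor vehicle 2 lay within the inhibitor acetate range. Acetate gave -0.31 (SE 0.14, adjusted p = 0.0801 by edgeR) without inhibitor, which did not pass, and lowered Ier2 by a log2 fold of -0.61 (SE 0.15, adjusted p = 0.00795 by edgeR) with it. The former passed with upper-quartile scaling (-0.37, adjusted p = 0.0439), scaled on neuronal markers (-1.02, adjusted p = 0.000144), in a fit of only the groups compared (-0.32, adjusted p = 0.0294) and without inhibitor vehicle 2 (-0.31, adjusted p = 0.0207), and the latter was lost without inhibitor vehicle 1 (-0.45, adjusted p = 0.0579) and with the score as a covariate (-0.38, adjusted p = 0.168), all by edgeR.

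At the synapse, Arc (chromosome 15, 74669083 to 74672570, minus strand, 3 exons) encodes a protein that promotes the removal of AMPA receptors from the membrane and whose RNA travels into dendrites. It was at 13.1, 11.6, 14.5 and 13.3 CPM in DMSO vehicle, against 7.57, 6.15, 5.67 and 5.78 CPM in DMSO acetate. In inhibitor vehicle it was at 9.56, 2.01 and 8.28 CPM, and in inhibitor acetate at 2.05, 2.62, 1.95 and 2.38 CPM. DMSO vehicle was higher than every other library, inhibitor acetate was lower than all DMSO libraries, and inhibitor vehicle 2 alone of the vehicle libraries lay in the inhibitor acetate range. Inhibitor vehicle and DMSO acetate, the middle groups in the order of means at 6.62 ± 4.04 CPM (SD, n = 3) and 6.29 ± 0.877 CPM (n = 4), overlapped.

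Acetate lowered Arc by a log2 fold of -1.06 (SE 0.30, adjusted p = 0.00944 by edgeR) without inhibitor and of -1.56 (SE 0.35, adjusted p = 0.0042 by edgeR) with it. Both calls held in all fits that left out 1 library, and without DMSO vehicle 1 and inhibitor vehicle 2 together the folds were -1.04 and -1.98. With the non-neuronal score in the model the fold of Arc without inhibitor turned to 0.07 (adjusted p = 0.906 by edgeR), and that with inhibitor went to -0.59 (adjusted p = 0.252 by edgeR). The score ran closely with acetate, at 4.67 ± 0.65 against 2.58 ± 0.0652 without inhibitor, so this fit separates them poorly. It leans on vehicle libraries with low scores, which differed in Arc. DMSO vehicle 1, at a score of 3.7, had 13.1 CPM, and inhibitor vehicle 2, at 2.28, had 2.01 CPM.

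Homer1 (chromosome 13, 93299635 to 93405129, plus strand) encodes a scaffold that links metabotropic glutamate receptors to calcium stores and to Shank proteins. It was at 26.8, 25.2, 24.2 and 21.4 CPM in DMSO vehicle, then 26.8, 28.1, 28.1 and 31.2 CPM in DMSO acetate, 21.8, 31.4 and 22.6 CPM in inhibitor vehicle, and 30.2, 28.6, 27.1 and 33.9 CPM in inhibitor acetate. Libraries overlapped between all groups that neighbour each other in the order of means, and inhibitor vehicle 2, the highest of its group, sat among the acetate libraries. The acetate folds, 0.22 (SE 0.11, adjusted p = 0.112 by edgeR) and 0.25 (SE 0.12, adjusted p = 0.137 by edgeR), did not pass. Without DMSO vehicle 1 and inhibitor vehicle 2 Homer1 rose in both arms, by 0.27 (adjusted p = 0.0127 by edgeR) and 0.44 (adjusted p = 0.00178 by edgeR), whereas scaled on neuronal markers it fell, with -0.48 (adjusted p = 0.000576 by edgeR) and -0.28 (adjusted p = 0.0334 by edgeR). It passed as raised under 2 of the 25 alternatives in each arm, a fit that left out 1 library among them. The models Gm47075 and Gm47088, of the GENCODE type TEC, overlap Homer1 on its own strand, so reads there cannot be told apart by strand.

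Rheb (chromosome 5, 24802823 to 24842624, minus strand) encodes the small GTPase that activates the growth kinase complex mTORC1. It was at 110, 117, 110 and 110 CPM in DMSO vehicle, then 109, 108, 108 and 114 CPM in DMSO acetate, 93.2, 96.1 and 116 CPM in inhibitor vehicle and 97.8, 110, 107 and 107 CPM in inhibitor acetate. All 4 groups overlapped, and the coefficient of variation within groups, 2.46% to 12.1%, was the smallest of the 8 genes in 3 of the 4 groups, Gadd45b in inhibitor acetate (4.91% against 5.1%) being the exception. Acetate gave -0.03 (95% interval -0.18 to 0.12) without inhibitor and 0.05 (-0.11 to 0.21) with it, at adjusted p = 0.738 and 0.611 by edgeR. Scaled on neuronal markers, which shifted the median of all genes by -0.72 and -0.55, these became -0.75 and -0.51, close to that shift, and both passed.

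For growth and repair, Btg2 (chromosome 1, 134075170 to 134079120, minus strand, 2 exons) encodes an antiproliferative protein that brings deadenylases to messenger RNAs. It was at 23.5, 29.6, 26.7 and 28.3 CPM in DMSO vehicle, against 15.7, 12.8, 15.2 and 15.5 CPM in DMSO acetate. With inhibitor it was at 30.1, 22.7 and 29.2 CPM without acetate and at 15, 14, 15.3 and 13 CPM with it. The 8 acetate libraries lay between 12.8 and 15.7 CPM and the 7 vehicle libraries between 22.7 and 30.1 CPM, with no overlap in either arm. Acetate lowered Btg2 by a log2 fold of -0.87 (SE 0.11, adjusted p = 3.67e-05 by edgeR) and of -0.93 (SE 0.11, adjusted p = 0.000158 by edgeR) in the DMSO and inhibitor arms.

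Gadd45b (chromosome 10, 80930073 to 80932204, plus strand), a stress and activity gene whose product binds the kinase MAP3K4 and has been tied to DNA demethylation in neurons, was at 20.5, 24.1, 25.7 and 30.7 CPM in DMSO vehicle, against 8.4, 9.33, 7.16 and 9.78 CPM in DMSO acetate. It was at 27.7, 13.5 and 24.5 CPM in inhibitor vehicle and at 7.14, 7.76, 8.02 and 7.78 CPM in inhibitor acetate. No acetate library reached the lowest vehicle library, which was inhibitor vehicle 2. The log2 folds were -1.54 (SE 0.18, adjusted p = 3.3e-05 by edgeR) without inhibitor and -1.51 (SE 0.20, adjusted p = 0.000236 by edgeR) with it. The calls of Btg2 and Gadd45b held in all 25 alternative settings in both arms. With the non-neuronal score in the model Btg2 fell by 0.52 and 0.68 and Gadd45b fell by 0.78 and 0.94, and by 1.34 in the DMSO arm Klf4 fell too.

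Inhibitor vehicle 2 received no acetate but had the lowest non-neuronal score. Arc, Npas4, Ier2, Btg2, Gadd45b and Klf4 were all lowest of their group in it, to different degrees. The library also stood apart in composition: 47.4% of its counts were assigned to no gene (38.9% to 43.1% in the others), and its 10 most abundant genes took 8.22% of its gene counts (3.99% to 5.72% in the others). Btg2 (22.7 CPM), Gadd45b (13.5 CPM) and Klf4 (3.1 CPM) stood above all 8 acetate libraries there. They were still below inhibitor vehicle 1 and 3, at 30.1 and 29.2 CPM for Btg2, 27.7 and 24.5 CPM for Gadd45b and 4.08 and 4.46 CPM for Klf4. Arc (2.01 CPM), Npas4 (4.56 CPM) and Ier2 (21.8 CPM) stood at the level of inhibitor acetate. This difference in degree is a description of 1 library, and the part of its composition in these levels was not tested.

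**Figure D3:**
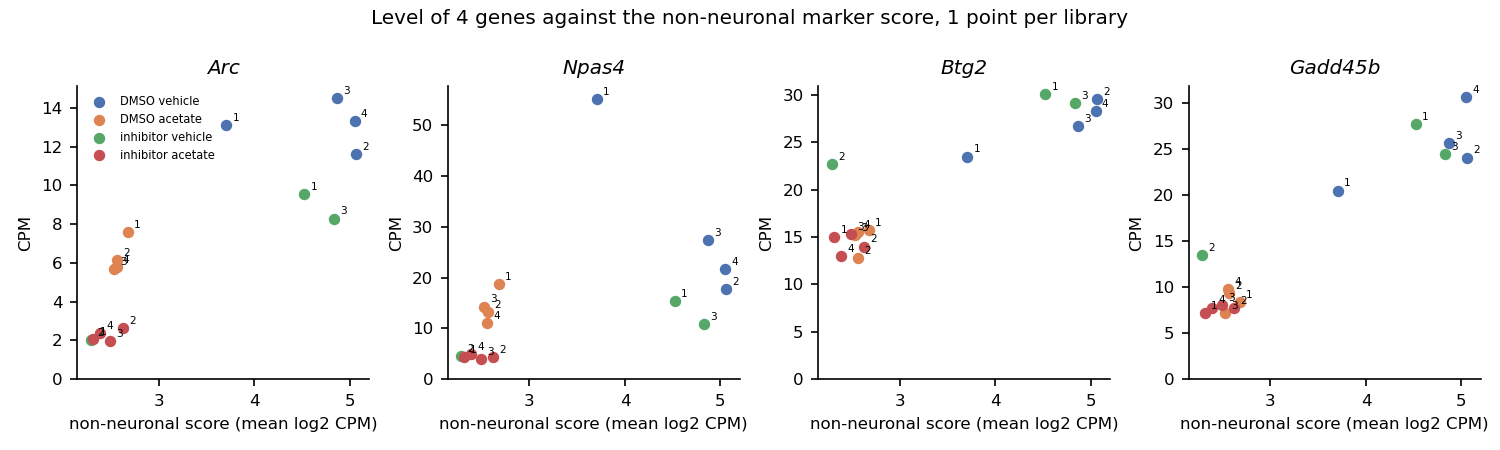
CPM of Arc, Npas4, Btg2 and Gadd45b (vertical axes) against the non-neuronal score in log2 CPM (horizontal axis), with 1 numbered point per library, coloured by group. Inhibitor vehicle 2, at a score of 2.28, lies with inhibitor acetate for Arc and Npas4 and above it for Btg2 and Gadd45b.

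Markers of other cells moved with these folds. Microglia markers fell for 13 of 13 tested in both arms, and their summed level went from 171 to 781 CPM in DMSO vehicle to 54.6 to 78.2 CPM in DMSO acetate, and from 43.1 to 657 CPM in inhibitor vehicle to 47.2 to 93 CPM in inhibitor acetate; Cx3cr1, the fractalkine receptor, had a log2 fold of -6.10 and Aif1 of -3.43 without inhibitor. Meninges markers fell for 6 of 8 and 5 of 8 (112 to 138 CPM in DMSO acetate against 190 to 785 CPM in DMSO vehicle), and vessel markers for 5 of 8 tested in each arm, with 1 raised without inhibitor (46.5 to 64.6 CPM against 139 to 281 CPM). Astrocyte markers fell for 7 of 11 and 5 of 11 (3600 to 4460 CPM against 4550 to 12500 CPM), and oligodendrocyte markers for 8 of 10 and 6 of 10 tested, although their summed level was 707 to 991 CPM against 306 to 881 CPM. Pan-neuronal markers rose for 12 of 14 and 13 of 14, led without inhibitor by Eno2 at 0.92 and Rbfox3 at 0.82, and excitatory neuron markers rose for 4 of 8 in each arm, from 1120 to 2310 CPM in DMSO vehicle to 2700 to 3270 CPM in DMSO acetate. Of inhibitory neuron markers 2 of 9 rose in each arm, and of 5 markers of cycling cells 0 were called in either. Over all genes 23.7% rose and 27.5% fell without inhibitor, and 14.5% and 20.6% with it. The inhibitory neuron count is near the share of all genes raised and is no result about these cells. With the score in the model, 3 of the 8 genes were called without inhibitor (Btg2, Gadd45b and Klf4) and 2 with it (Btg2 and Gadd45b), where 1001 and 1071 of all genes were lowered and 1228 and 821 raised. Within groups the score varied mostly through DMSO vehicle 1 and inhibitor vehicle 2, so these counts lean on those libraries. Scaled on neuronal markers all 8 were lowered in each arm, as were 12138 and 10344 of the 15075 genes.

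**Figure D4:**
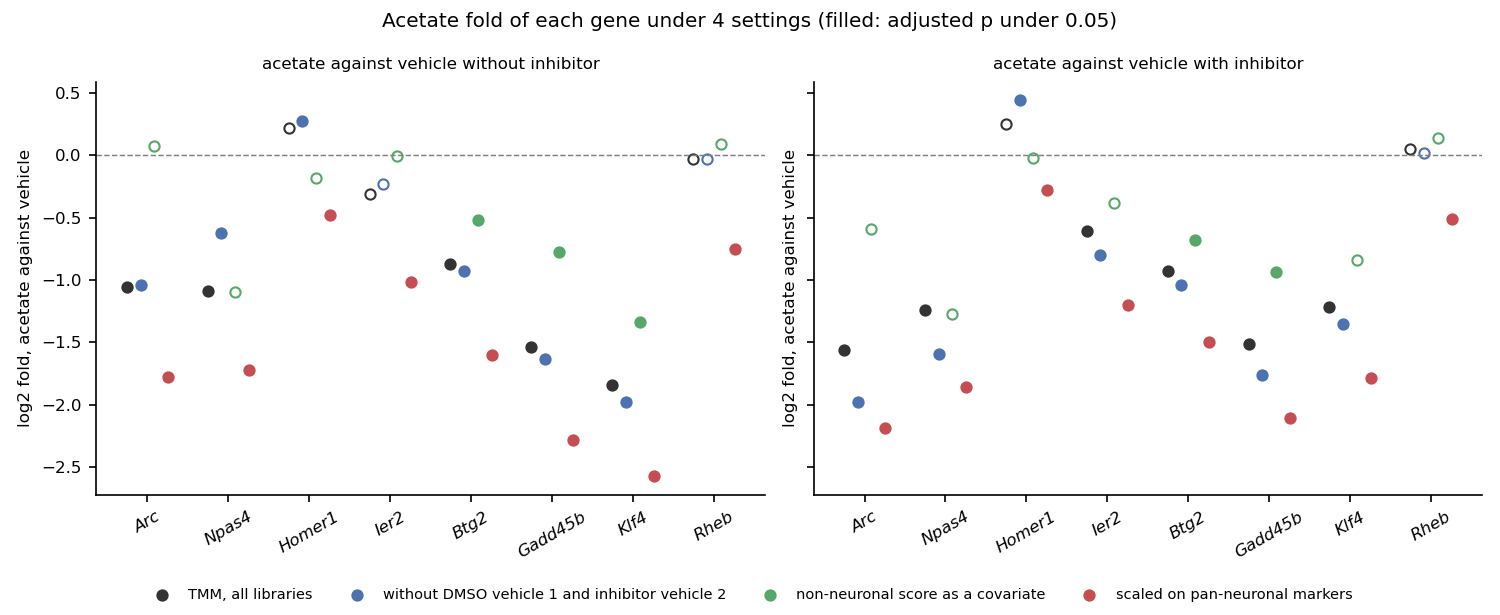
Log2 fold with acetate of each of the 8 genes (vertical axis) in the arms without and with inhibitor (panels) under 4 settings (colours), with filled points where the adjusted p was under 0.05 by edgeR. Btg2 and Gadd45b are filled and below 0 under every setting drawn, Arc lies at 0.07 without inhibitor with the non-neuronal score in the model, and Homer1 changes sign with the setting.

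Subtracting the acetate fold of the DMSO arm from that of the inhibitor arm asks whether the inhibitor altered the response. This difference called 0 of the 8 genes by edgeR, with 0 also at an unadjusted p under 0.05 and by DESeq2 (of all 15075 genes 0.0199% were called, 0.0133% as raised and 0.00663% as lowered, and 20.7% were under 0.05 unadjusted). The values were -0.50 for Arc (95% interval -1.48 to 0.47, adjusted p = 0.577), -0.16 for Npas4 (-1.26 to 0.95, adjusted p = 0.903), -0.30 for Ier2 (-0.75 to 0.15, adjusted p = 0.445) and 0.62 for Klf4 (-0.17 to 1.41, adjusted p = 0.365), all by edgeR. Btg2, at -0.06 (-0.39 to 0.28), Gadd45b, at 0.03 (-0.55 to 0.60), Homer1, at 0.02 (-0.34 to 0.38), and Rheb, at 0.08 (-0.13 to 0.30), lay nearer to 0, and their intervals still leave room for differences of these sizes. Without DMSO vehicle 1 and inhibitor vehicle 2 the difference passed for Arc (-0.94, adjusted p = 0.0249), Npas4 (-0.97, adjusted p = 0.0464) and Ier2 (-0.57, adjusted p = 0.0421), all by edgeR, that is, the fall with acetate was larger with the inhibitor. That fit leaves inhibitor vehicle with 2 libraries, and it called 237 of all genes as raised and 417 as lowered, against 2 and 1 with all libraries. Leaving out either library by itself gave 0 calls of the 8.

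The inhibitor by itself, without acetate, lowered 1 of the 8 genes, Npas4 (all genes tested: 5.46% called, 1.99% as lowered and 3.47% as raised, and 25.4% under 0.05 unadjusted, as were 2 of the 8). Its log2 fold was -1.57 (SE 0.39, adjusted p = 0.0332 by edgeR), from 30.5 ± 16.9 CPM (SD, n = 4) in DMSO vehicle to 10.2 ± 5.4 CPM (n = 3) in inhibitor vehicle, with no overlap of libraries. That call was lost without DMSO vehicle 1 (-1.12, adjusted p = 0.0502), without inhibitor vehicle 2 (-1.22, adjusted p = 0.0768), scaled on neuronal markers (adjusted p = 0.0721) and in a fit of only the groups compared (-1.58, adjusted p = 0.25), all by edgeR; without both libraries it was -0.77 with adjusted p = 0.0328 by edgeR. Arc, at -0.98 (SE 0.33, adjusted p = 0.0859 by edgeR), also had no overlap between libraries but did not pass; it passed with DESeq2's Wald test (-0.98, adjusted p = 0.0353), with the score as a covariate (-0.76, adjusted p = 0.0278 by edgeR) and without both libraries (-0.56, adjusted p = 0.0401 by edgeR). Libraries lay lower without overlap for 2 of the 8 and for 7.36% of all genes, and higher for 0 of the 8 and 9.34%. The other 6 genes ran from -0.20 for Gadd45b to 0.26 for Klf4 and did not pass; Rheb, at -0.14, passed at -0.24 without inhibitor vehicle 3 (adjusted p = 0.0349 by edgeR). Of the marker lists, 1 cycling cell marker of 5 and 1 inhibitory neuron marker of 9 fell here and none of the others was called, while the score was 4.67 against 3.88.

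In acetate-treated cultures the inhibitor lowered 2 of the 8, Arc and Npas4 (all genes tested: 5.78% called, 3.42% as lowered and 2.36% as raised, and 22% under 0.05 unadjusted, as were 4 of the 8). The groups compared here had near-equal non-neuronal scores, 2.58 ± 0.0652 and 2.45 ± 0.135 (SD, n = 4 each). Their summed microglia markers were similar, 54.6 to 78.2 and 47.2 to 93 CPM, and of the non-neuronal marker lists 0 members were called. Of 14 pan-neuronal markers 0 were called. Of 8 excitatory neuron markers 1 rose and 1 fell, and of 9 inhibitory neuron markers 1 rose. Of 5 markers of cycling cells 0 were called. Their summed level was nonetheless lower with inhibitor without overlap, at 88.1 to 142 CPM against 147 to 192 CPM, so the groups were not even in every list. Arc went from 6.29 ± 0.877 to 2.25 ± 0.309 CPM, a log2 fold of -1.49 (SE 0.33, adjusted p = 0.0196 by edgeR), and Npas4 from 14.3 ± 3.22 to 4.33 ± 0.398 CPM, a log2 fold of -1.73 (SE 0.37, adjusted p = 0.017 by edgeR), both without overlap. With the score as a covariate the folds were -1.42 for Arc (adjusted p = 0.000756 by edgeR) and -1.74 for Npas4 (adjusted p = 0.00407 by edgeR), and both calls also held without DMSO vehicle 1 and inhibitor vehicle 2, libraries of groups not compared here. Leaving out DMSO acetate 2 or inhibitor acetate 3 ended the call of Arc (adjusted p = 0.0574 and 0.0698) and of Npas4 (adjusted p = 0.0501 and 0.0596), and leaving out inhibitor acetate 1 (adjusted p = 0.0545) or scaling on neuronal markers (adjusted p = 0.0823) that of Arc, all by edgeR, with folds from -1.38 to -1.77.

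Ier2, lower with inhibitor at -0.49 (SE 0.14, adjusted p = 0.0587 by edgeR), and Klf4, higher at 0.88 (SE 0.27, adjusted p = 0.0639 by edgeR), had no overlap between libraries and did not pass. Both passed under 6 of the 25 alternatives: DESeq2's Wald test, a fit of only the groups compared, the score as a covariate, and without DMSO vehicle 1, without inhibitor vehicle 2 or without both. Over all genes more were called as well, 872 raised and 1397 lowered with the covariate, against 356 and 515. Without both libraries these numbers were 1050 and 1637. Lower without overlap were 3 of the 8 and 12.4% of all genes, and higher without overlap 1 of the 8 and 8.96%. Btg2, at -0.04 (95% interval -0.27 to 0.19), Gadd45b, at -0.18 (-0.58 to 0.23), Homer1, at 0.07 (-0.17 to 0.31), and Rheb, at -0.05 (-0.20 to 0.09), did not pass. The comparisons of this paragraph and of the acetate response share libraries, so their folds are not independent of each other.

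Rapid early genes outside the set, 35 genes that include Fos, Egr1 and Nr4a1, fell for 23 and rose for 1 with acetate without inhibitor, with a median of -0.64 beside -0.034 for all genes, and fell for 20 and rose for 1 with inhibitor, beside 27.5% and 20.6% of all genes lowered. Those with the smallest p were Cyr61, a secreted matrix protein, at -3.69 (SE 0.44), Mcl1, a survival factor of the Bcl2 family, at -0.53 (SE 0.06), and Atf3, a stress-induced factor, at -3.87 (SE 0.51). With the score as a covariate 11 and 10 fell. Late activity-regulated genes fell for 9 of 14 and rose for 2 without inhibitor, and fell for 5 and rose for 2 with it; Nptx2, a pentraxin that gathers AMPA receptors, had -2.22 (SE 0.25), the growth-promoting Nrn1 -0.63 (SE 0.09) and the kinase Plk2 -0.41 (SE 0.07). With the score as a covariate 3 and 2 fell, beside the same 1001 and 1071 of all genes. Without acetate the inhibitor lowered 3 of the rapid and 3 of the late genes, where 1.99% of all genes were lowered. With acetate it lowered 7 and 5 and raised 1 late gene, Plk2, where 3.42% of all genes were lowered and 2.36% raised. In the latter comparison, where the score differed by less, the rapid genes called were Egr3, Egr4, Nr4a1, Nr4a3, Csrnp1, Rgs2 and Fbxo33. The late genes lowered were Bdnf, Pcsk1, Vgf, Nrn1 and Rgs4. All these genes were named after their values were seen.

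The kinases and factors that act upstream of early genes numbered 26, of which 9 rose and 7 fell without inhibitor, and 9 rose and 1 fell with it. Over all genes 23.7% rose and 27.5% fell without inhibitor and 14.5% and 20.6% with it, so the share that fell without inhibitor was near that of all genes. Mapk3, which encodes the kinase ERK1, rose by 0.82 (SE 0.09) and Ppp3cb, a catalytic subunit of calcineurin, by 0.73 (SE 0.11), while Rps6ka2, a kinase of the RSK family, fell by 0.86 (SE 0.14). Scaled on neuronal markers, 1 rose and 17 fell without inhibitor, where 283 of all 15075 genes rose and 12138 fell.

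Of 13 genes for protein partners of Arc, 9 rose and 1 fell without inhibitor and 6 rose and 1 fell with it, beside 23.7% of all genes raised without inhibitor and 14.5% with it. Those that rose without inhibitor include the clathrin adaptor subunit Ap2a1 at 0.65 (SE 0.10), the scaffold Dlg4 at 0.83 (SE 0.12) and the AMPA receptor subunit Gria2 at 0.73 (SE 0.14). Among 12 Homer partners and relatives, 9 rose and 2 fell without inhibitor and 6 rose and 1 fell with it. Grm5, a metabotropic receptor that Homer proteins bind, had 1.22 (SE 0.19), and the paralogs Homer2 and Homer3 rose by 0.92 (SE 0.15) and 0.36 (SE 0.08) where Homer1 itself did not pass. Pan-neuronal markers had a median of 0.72 in the same comparison, and their part in these rises was not tested. With the score as a covariate 2 of the Arc partners rose and 0 fell without inhibitor and 1 rose and 0 fell with it, and of the Homer list 1 rose and 1 fell without inhibitor and 0 were called with it. With the covariate 1228 of all genes rose and 1001 fell without inhibitor, and 821 and 1071 with it. Scaling on neuronal markers moves all genes down together. Without inhibitor it left 0 of the Arc partners raised and 6 lowered, and 1 of the Homer list raised and 5 lowered. Under it 283 of all 15075 genes rose and 12138 fell, so a larger share of all genes than of either list was lowered.

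Dimer partners and relatives of Npas4 fell for 3 of 5 tested (7 listed) without inhibitor, namely Arnt2 at -0.56 (SE 0.10), Arnt at -0.40 (SE 0.12) and Npas2 at -0.62 (SE 0.20), and 0 of 5 were called with it; 27.5% of all genes fell without inhibitor. In the Rheb and mTORC1 pathway 6 of 19 rose and 3 fell without inhibitor, and 2 rose and 2 fell with it, where 23.7% of all genes rose and 27.5% fell without inhibitor and 14.5% and 20.6% with it. These counts are no result about the pathway, and scaled on neuronal markers, as over all genes, most of the list was lowered (17 of 19, and 14 with inhibitor) and 0 raised. Akt1, a kinase upstream of Rheb, rose by 0.58 (SE 0.07), and Tbc1d7, a subunit of the TSC complex that switches Rheb off, and Akt1s1, an inhibitory mTORC1 subunit, rose by 0.40 (SE 0.08) and 0.35 (SE 0.09). The paralog Rhebl1 was at 0.37 (SE 0.11, adjusted p = 0.0123 by edgeR), and it was raised where Rheb was at -0.03.

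Of 15 tested Btg relatives and deadenylase genes, 5 fell and 0 rose without inhibitor and 4 fell and 0 rose with it, shares near the 27.5% and 20.6% of all genes that fell. Btg1, the nearest paralog of Btg2, had -1.06 (SE 0.19), Tob2 -0.46 (SE 0.09) and the deadenylase subunit Pan2 -0.47 (SE 0.10). Gadd45 relatives and partners fell for 5 of 9 tested without inhibitor and for 2 with it, beside the same shares of all genes. Gadd45a fell by 1.19 (SE 0.25) and Gadd45g, at -0.33 (SE 0.14, adjusted p = 0.0561 by edgeR), did not pass. The dioxygenase Tet2 fell by 0.77 (SE 0.16) and the replication clamp Pcna by 0.54 (SE 0.12). With the score as a covariate the Btg list had 0 calls in both arms and the Gadd45 list 2 and 1. Of all genes 1001 and 1071 were lowered there and 1228 and 821 raised.

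In the Klf family 4 of 13 rose and 2 fell without inhibitor, and 2 rose and 2 fell with it, beside 23.7% of all genes raised and 27.5% lowered without inhibitor and 14.5% and 20.6% with it. Klf2, which like Klf4 responds to growth and flow signals, fell by 1.44 (SE 0.23), whereas Klf16 and Klf7 rose by 0.66 (SE 0.09) and 1.05 (SE 0.19). Scaled on neuronal markers 0 rose and 7 fell in each arm, where 12138 and 10344 of all 15075 genes fell. Of the 3 Ier relatives tested 2 fell in each arm, Ier5 at -0.70 (SE 0.10) and Ier3 at -1.62 (SE 0.42) without inhibitor. Ier5, Klf2, Btg1 and Gadd45g are also counted among the rapid early genes.

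Over the 15 libraries, which share the group structure and the marker differences above, levels in log2 CPM were set side by side as a description. Arc and Npas4 had a Pearson correlation of 0.94 (Spearman 0.91), and 0.73 for deviations from the group means. Btg2 and Gadd45b had 0.96 (Spearman 0.84), and 0.59 for deviations. Between these pairs the Pearson values were lower, 0.66 for Arc with Btg2, 0.76 for Arc with Gadd45b, 0.52 for Npas4 with Btg2 and 0.62 for Npas4 with Gadd45b. For deviations they did not follow that order: Arc with Gadd45b had 0.80, above both pairs, Arc with Btg2 0.54, Npas4 with Gadd45b 0.30 and Npas4 with Btg2 0.08. Homer1 ran against Arc, at -0.73 by both measures.

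Among 11539 genes at or above an average log2 CPM of 2, those most like Arc were Rgs4, a brake on G protein signalling (0.983), Hs3st1, a heparan sulfate sulfotransferase (0.981), and Csrnp1, an early nuclear factor (0.977), with Spearman values of 0.961, 0.936 and 0.943. Csrnp1 was also first for Npas4 (0.959), followed by Fam131a (0.956) and Nt5dc2 (0.95). For Gadd45b they were Acta2 (0.984) and Tagln (0.982), genes of smooth muscle and related cells, and the glucose transporter Slc2a1 (0.981), and for Btg2 the small heat shock protein gene Hspb8 (0.982), Slc2a1 (0.981) and Myo1e (0.98). Ier2 was nearest to Il17rc (0.971), Plbd2 (0.956) and Crtc3, a CREB coactivator (0.953), and Klf4 to Il6ra (0.953), Tfcp2 (0.945) and Vangl1 (0.937). Homer1 was nearest to Zfr (0.955), Bicd1 (0.945) and the kinase Gsk3b (0.943), and Rheb, whose level varied least, to Pcbp1 (0.873), Actr3 (0.838) and Bpnt1 (0.833). The nearest genes depended on the measure: for Arc they were Tmem109 (0.975), Foxj1 (0.968) and Emc8 (0.964) by Spearman and Foxj1 (0.98), Ankrd34a (0.971) and Mafk (0.962) by deviations from group means, and for Npas4 Sipa1l1 (0.953) was first by deviations.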

How the data were processed

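RNA-seq libraries of 4 groups (15 in all) were compared. Per the labels' protocols, RNA was taken with QIAzol and RNeasy columns and libraries were made with a strand-specific NEBNext kit. The deposited table gives the authors' raw read counts per gene symbol, with no normalization. Per the submitters' processing notes, the tools were STAR 2.5.2a, HTSeq 0.6.1p1 and DESeq2, and the build mm10. Which annotation, counting mode and strand option were used is not given in the sources used here. Values of overlapping genes are therefore uncertain. The 5 summary lines that name no gene (38.9% to 47.4% of counts) were left out. The 21 within-group pairs of libraries differed by a chi-square of 4.65 to 144 per gene, so each was counted as a replicate.

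Counts were fitted in R 4.3.3 with edgeR 4.0.16 (default expression filter, TMM scaling, quasi-likelihood test, 1 mean per group over all libraries, limma 3.58.1), with Benjamini-Hochberg adjustment over 15075 genes and a threshold of 0.05. The SE is the log2 fold divided by the square root of F, and 2 was the prior count of log2 CPM. The steps were tested on simulated data. Alternatives were DESeq2 1.42.0 (size factors, and its Wald test), upper-quartile and neuronal-marker scaling, 2 other expression filters, fits of only the groups compared, a replicate block, the non-neuronal score as a covariate, and libraries left out. The 8 genes, the 11 pathway and 9 marker lists and the alternatives were chosen with earlier results of these data known, so no list is independent evidence of its direction. Named by rule were all 8 genes, 6 paralogs, up to 3 genes of each pathway list and up to 2 of each marker list by smallest p, and the 3 genes most correlated with each of the 8; a gene that the rule names is not reported here. Promoter windows were searched on both strands.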

Additional observations from a re-analysis of the deposited data

Results flagged for a closer look

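Of 24 groups of 4 libraries in which a single library could be tested against the rest (8 genes in 3 groups), 1 held a library far from the others: Rheb in DMSO vehicle 2, at 117 CPM, where the other DMSO vehicle libraries each stood at 110 CPM. Its gap to the nearest library, as a share of the group's range, was above the 95% critical value of Dixon's test. Chance flags about 1 in 20 such groups. Groups of 3 libraries, here inhibitor vehicle, were not tested, so the low levels of Arc (2.01 CPM) and Npas4 (4.56 CPM) in inhibitor vehicle 2 were not open to this test.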

How the results depend on the processing

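Of the log2 folds of the 8 genes over all alternatives, 903 kept direction and side of the threshold. With the direction kept, 28 gained a call and 22 lost it. The other 39 changed sign, and some of these gained or lost a call as well. The number of the 8 genes past the threshold, in the order acetate without inhibitor, acetate with inhibitor, difference of responses, inhibitor without acetate and inhibitor with acetate, was 5, 6, 0, 1 and 2. Leaving out 1 library at a time gave ranges of 4 to 7, 4 to 7, 0 to 0, 0 to 2 and 0 to 4. Scaling on neuronal markers gave 8, 0 and 1 for acetate without inhibitor and for the inhibitor without and with acetate, DESeq2's Wald test 2 and 4 in the inhibitor comparisons, and a fit of only the groups compared 0 and 4 there. With the non-neuronal score in the model the counts were 3, 2, 2 and 4 in the direct comparisons. Without DMSO vehicle 1 and inhibitor vehicle 2 the difference gave 3 and the inhibitor comparisons 2 and 4. All genes lowered by acetate without inhibitor numbered 4139, and 1001 with the score as a covariate and 12138 with neuronal scaling. The inhibitor without acetate raised 523 and lowered 300 of all genes, and 1228 and 1079 with the covariate. With acetate it raised 356 and lowered 515, and 872 and 1397 with the covariate. Calls over all genes thus rose with the covariate along with those of the 8 in these comparisons. Without both libraries the numbers were 413 and 396 without acetate and 1050 and 1637 with it.

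Changes of sign were small folds, except Homer1 and Rheb under neuronal scaling and Arc under the covariate. Neuronal scaling gave Homer1 -0.48 and -0.28 with acetate and -0.02 with inhibitor without acetate, Rheb -0.51 with acetate and inhibitor and 0.05 for inhibitor with acetate, and Btg2 0.10 in the difference, -0.03 and 0.07 in the inhibitor comparisons; upper-quartile scaling gave Btg2 -0.01 for inhibitor without acetate. The covariate gave, with acetate, Arc 0.07, Homer1 -0.18 and -0.02 and Rheb 0.09, in the difference Gadd45b -0.16, and for inhibitor without acetate Homer1 -0.12 and Gadd45b 0.03. Without both libraries Gadd45b was -0.14 in the difference, and Homer1 -0.09 and Ier2 0.09 for inhibitor without acetate. Leaving out 1 library, the difference ranged from -0.60 to 0.25 for Npas4, -0.06 to 0.21 for Homer1, -0.17 to 0.03 for Btg2 and -0.22 to 0.24 for Gadd45b, and inhibitor without acetate from -0.06 to 0.13 for Btg2, -0.14 to 0.14 for Homer1, -0.34 to 0.01 for Ier2 and -0.40 to 0.05 for Gadd45b. Fewer samples or another scale enter these fits; beyond that the cause was not tested.

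No pairing by replicate number was seen. The deviations of same-numbered libraries of different groups correlated at -0.65 to 0.38 and those of other-numbered ones at -0.66 to 0.74. Of 15 libraries, 2 correlated best with their own number. Deviations from the means of so few libraries are shaped by those that stand apart, so this check cannot exclude a shared culture or preparation. A fit with the replicate number as a block gave 5, 6, 0, 1 and 2 genes and -0.02 for Gadd45b in the difference. Klf4, with 16 to 118 counts, is the gene most limited by depth.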

Other observations

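Ratios of 2 genes' counts within a library do not depend on scaling or depth; the pairs below were chosen after their values were seen. Arc counts per Btg2 count were 0.393 to 0.558 in DMSO vehicle and 0.373 to 0.483 in DMSO acetate, which overlap, and with inhibitor 0.0884 to 0.318 without and 0.127 to 0.186 with acetate, which also overlap. Btg2 and Gadd45b themselves fell with acetate, so an overlap here does not mean that Arc stayed level: per count of Rheb, which did not pass, Arc was at 0.0989 to 0.132 in DMSO vehicle and lower without overlap, at 0.051 to 0.0696, in DMSO acetate. With inhibitor it was at 0.0209 to 0.103 per Rheb count without and 0.0182 to 0.0237 with acetate, which overlap. Per Btg2 count, the inhibitor groups lay below the DMSO groups in every library. Npas4 counts per Btg2 count followed the same order, at 0.603 to 2.35 and 0.717 to 1.19 without inhibitor and 0.201 to 0.509 and 0.254 to 0.375 with it. Without inhibitor Arc per Gadd45b was 0.434 to 0.639 with vehicle and 0.591 to 0.901 with acetate. With inhibitor it was 0.148 to 0.345 and 0.243 to 0.337.

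Npas4 counts per Arc count ran from 1.54 to 4.21 with vehicle and 1.92 to 2.52 with acetate, and with inhibitor from 1.32 to 2.27 and 1.65 to 2.09, so these 2 genes, which both fell with acetate, kept overlapping ratios in all groups. Klf4 per Gadd45b was 0.101 to 0.149 and 0.0593 to 0.163 without inhibitor and 0.148 to 0.229 and 0.168 to 0.262 with it. These are values without a test.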
